A study of Rattus norvegicus with 32 samples.

Results

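The 10 genes described here (Ttr, Kl, Enpp2, Sostdc1, Slc4a5, Aqp1, Folr1, Clic6, Kcne2 and F5) are known for their expression in the choroid plexus, and they were read in RNA-seq libraries of the rat hippocampus as a gauge of choroid plexus tissue carried along in the dissection. They were selected by symbol from the 32883 genes of the count tables after the counts in these libraries had been seen, so their levels are given as a description. All 10 symbols matched 1 row each in both tables.

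The data came from 32 hippocampi of Sprague-Dawley rats at postnatal day 65, with 4 males and 4 females in each of 4 diet groups. Iron-sufficient rats (IS) came from dams on an iron-sufficient diet, and formerly iron-deficient rats (FID, labelled ID) came from dams fed an iron-deficient diet from early gestation until the end of the first week after birth. ISch and FIDch (labelled IDch) rats came from dams on the same diets that also received extra choline in mid gestation, and all pups were kept on iron-sufficient food afterwards. Male libraries formed sequencing batch I and female libraries batch II, with a different RNA extraction kit in each, so that sex, batch and kit cannot be told apart. Each male library held 3515806 to 9517503 counted reads and each female library 18439999 to 26616318. Levels below are read counts scaled to the library total (CPM, counts for every 1000000 counted reads), and 3 counts, the upper limit that a count of 0 allows, corresponded to 0.315 to 0.853 CPM in males and 0.113 to 0.163 CPM in females. Limits and intervals made from counts cover counting error only.

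The choroid plexus is a fold of vascular tissue with a secretory epithelium that hangs into the brain ventricles, makes cerebrospinal fluid and releases carrier proteins into it. A strip of it lies along the choroidal fissure beside the hippocampus, within reach of a hippocampal dissection. Its epithelium is known for very abundant transthyretin mRNA, so a small amount of that tissue can be seen in the RNA of a much larger one. In bulk tissue, fewer cells of a type and less RNA per cell cannot be told apart.

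RefSeq promoter sequences (build GRCr8, while the counts were made on Rnor_6.0) were available for Ttr, Kl, Slc4a5, Aqp1 and F5. The 250 bases before the start of Ttr, the gene with the widest range of levels, of Aqp1, whose level followed that of Ttr in both batches, and of Slc4a5, the member with motif matches, are shown 5′ to 3′, with matches in capitals. They lie on the plus strand at chr18:12218508-12218757, chr4:85812534-85812783 and chr4:117283044-117283293.
Ttr: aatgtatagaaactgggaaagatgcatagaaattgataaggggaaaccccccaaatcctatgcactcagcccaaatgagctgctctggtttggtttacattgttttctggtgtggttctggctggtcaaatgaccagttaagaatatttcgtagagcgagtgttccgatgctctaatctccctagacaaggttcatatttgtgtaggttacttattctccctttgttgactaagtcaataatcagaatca
Aqp1: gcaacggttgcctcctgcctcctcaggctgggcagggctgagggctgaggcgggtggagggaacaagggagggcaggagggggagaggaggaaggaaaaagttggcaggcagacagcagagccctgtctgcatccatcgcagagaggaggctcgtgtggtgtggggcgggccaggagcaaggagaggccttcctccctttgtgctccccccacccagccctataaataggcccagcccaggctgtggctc
Slc4a5: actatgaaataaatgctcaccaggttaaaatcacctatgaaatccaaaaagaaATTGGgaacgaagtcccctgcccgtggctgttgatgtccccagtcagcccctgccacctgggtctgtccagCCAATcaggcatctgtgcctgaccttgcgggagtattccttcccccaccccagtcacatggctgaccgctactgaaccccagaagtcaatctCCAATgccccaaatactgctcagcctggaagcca
The motifs searched, on both strands, were TAATCC, the core bound by OTX factors, TGTTTAC, a forkhead core, and CCAAT, the CCAAT box. TAATCC was found in 0 of the 5 member promoters and in 6.34% of 33469 promoters of the same length. TGTTTAC was found in 0 of the 5 and in 3.21% of all. CCAAT was found in 1 of the 5, that of Slc4a5, and in 34.0% of all. A missing match says only that these letters were not in this window.

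A male FID library, replicate 4, was higher than the other 31 in every one of the 10 genes. It held 2914 reads of Ttr, which encodes transthyretin, the carrier of thyroxine and of retinol-binding protein in cerebrospinal fluid. Its Ttr level of 348 CPM compared with 14.0 CPM in the next highest male library, FID replicate 2 (133 reads), a ratio of 24.9 with a 95% exact counting interval of 20.9 to 29.8. The median of the other 15 male libraries was 1.72 CPM. The 10 genes together came to 630 CPM in this library and to 97.0 to 131 CPM in the other 15 male libraries. In the 16 female libraries the same sum ran from 95.5 to 125 CPM. Outside male FID replicate 4 most of this sum was Enpp2. Without Enpp2 the sum was 429 CPM in male FID replicate 4, 5.71 to 22.0 CPM in the other 15 males and 5.40 to 20.5 CPM in females.

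**Figure D1:**
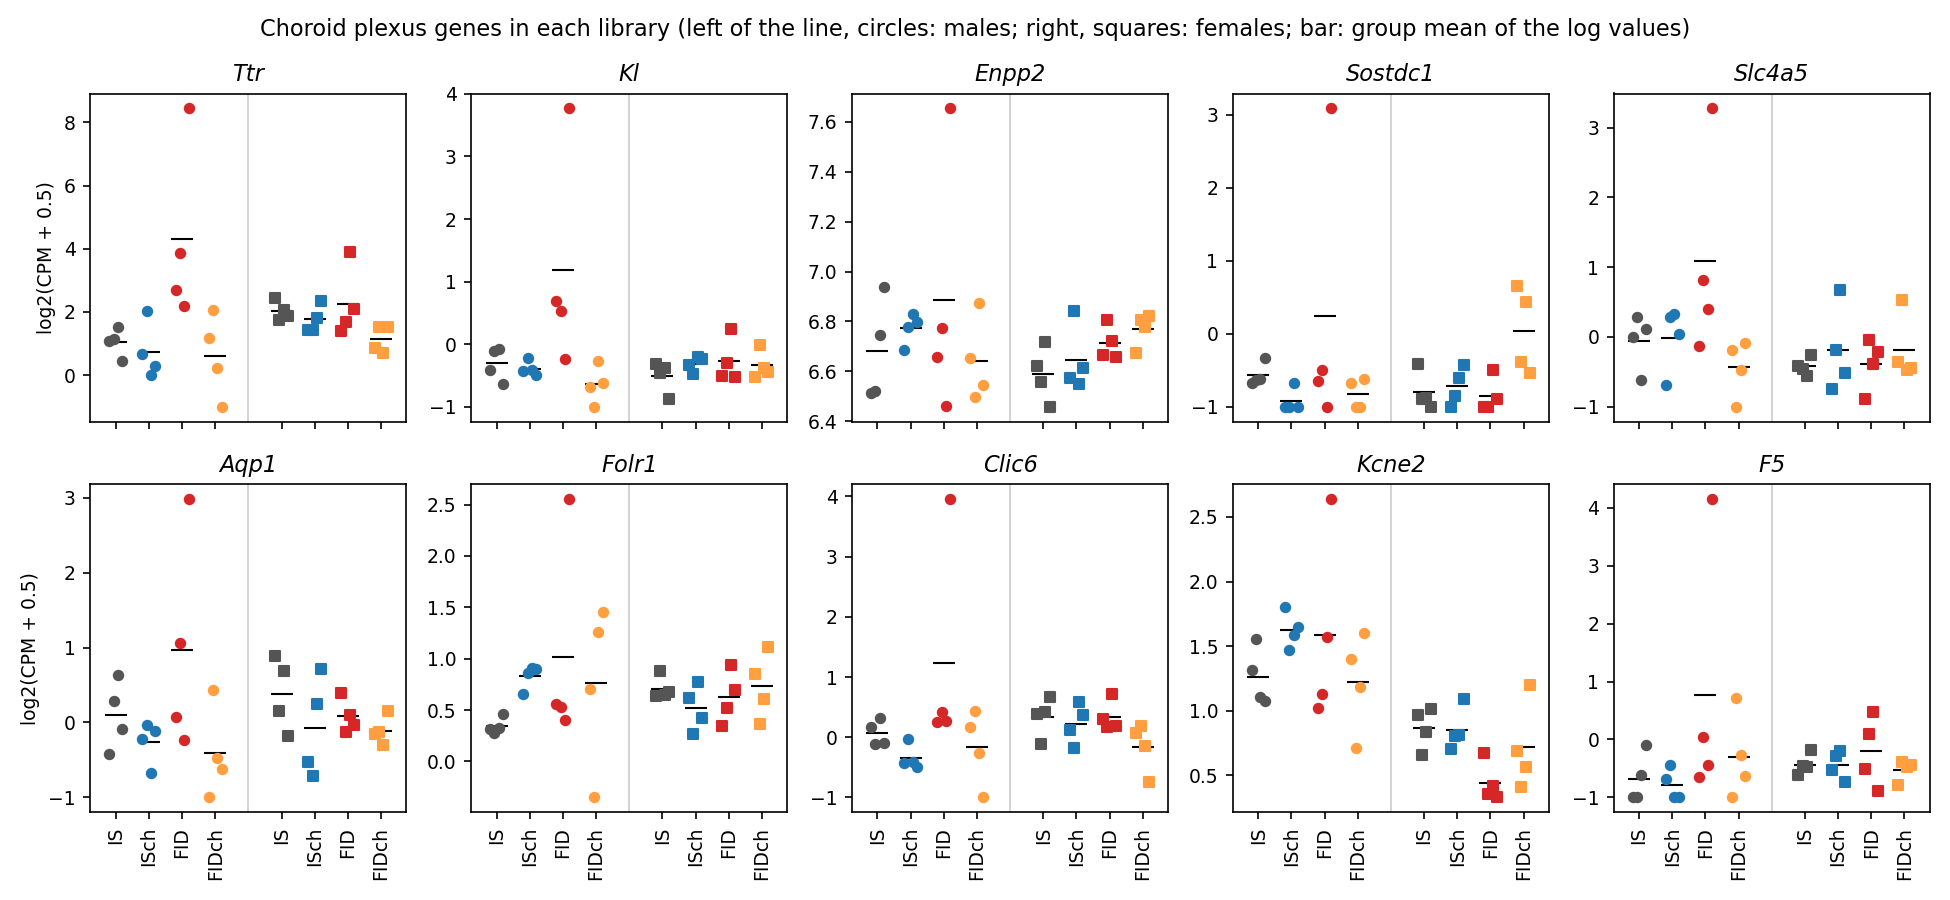
Level of each of the 10 genes in each library, as log2(CPM + 0.5) on axes that differ between panels, by diet group, for males (circles, left) and females (squares, right). The bar is the group mean of the log values. Male FID replicate 4 is the highest male point in all 10 panels.

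The other secreted proteins and receptors of the set were also highest there. Kl encodes Klotho, a co-receptor for FGF23 that is also shed into cerebrospinal fluid, and it had 110 reads (13.1 CPM) in male FID replicate 4. Its next highest male library was FID replicate 1 with 8 reads (1.11 CPM), which gave a ratio of 11.8 (counting interval 5.80 to 28.1). Kl stood at 0.946 CPM in FID replicate 2 and at 0.352 CPM in FID replicate 3, and at 0 to 0.451 CPM in the other 12 males. Sostdc1, a secreted antagonist of BMP and Wnt signalling, had 67 reads (7.99 CPM) and no more than 2 reads in any other male library. F5, coagulation factor V, had 145 reads (17.3 CPM) and at most 5 reads elsewhere among the males. Folr1 encodes the folate receptor alpha that carries folate into cerebrospinal fluid. It had 45 reads (5.37 CPM), 2.41 times (counting interval 1.32 to 4.65) the level of the next library, FIDch replicate 4.

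The transporters and channels of the epithelium followed the same pattern. Clic6, a chloride intracellular channel protein, had 126 reads in male FID replicate 4, 17.6 times (counting interval 5.89 to 86.6) the CPM of the next library, FIDch replicate 2. The other 15 male libraries held 0 to 8 reads of it, at most 0.853 CPM. Aqp1, the apical water channel, had 62 reads (7.40 CPM) against a highest value of 1.58 CPM elsewhere, in FID replicate 2. Slc4a5, a sodium bicarbonate cotransporter, had 77 reads (9.19 CPM) against 1.26 CPM, again in FID replicate 2. Slc4a5 and F5 each overlap 1 long non-coding RNA in RefSeq, and since the counting strand was not given in the sources used here, reads of the overlapping genes cannot be told apart.

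Enpp2 and Kcne2 had the smallest ratios. Enpp2 encodes autotaxin, an enzyme that makes lysophosphatidic acid and that oligodendrocytes make as well. It reached 201 CPM in male FID replicate 4 and 87.6 to 122 CPM in the other 15 males, a ratio to the next library of 1.65 (counting interval 1.51 to 1.79). Across the 16 male libraries its Spearman rho with the summed oligodendrocyte markers was 0.66, and across the 16 female libraries 0.52, values that share each library's depth and are given as a description. Without the 2 libraries of each batch farthest from the median level of the 10 genes (in males FID replicates 2 and 4, in females FID replicate 3 and ISch replicate 3), these values were 0.75 and 0.61. Kcne2, a potassium channel subunit, had 48 reads (5.73 CPM), 1.91 times (counting interval 1.16 to 3.24) its level in the next library, ISch replicate 1. It was counted in all 32 libraries, at 1.14 to 2.99 CPM in the other males and 0.757 to 1.80 CPM in the females. In RefSeq Kcne2 and Clic6 both lie on chromosome 11, with 7 genes between them, of which 5 are protein-coding.

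Most of the members lay near the counting limit in the other male libraries. Among the 15 other males, Sostdc1 had 3 reads or fewer in 15 libraries, Kl in 13, F5 in 13, Aqp1 in 9, Clic6 in 8 and Slc4a5 in 7. Ttr had 3 reads or fewer in 1, FIDch replicate 4, where it had none. In the deeper female libraries Ttr, Enpp2, Folr1 and Kcne2 had more than 3 reads in all 16, and Sostdc1 had 3 reads or fewer in 9.

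Ttr levels in the females had a narrower range. Female IS rats had 4.90, 2.88, 3.71 and 3.20 CPM, ISch rats 2.21, 2.22, 3.04 and 4.64 CPM, FID rats 2.11, 2.70, 14.4 and 3.74 CPM, and FIDch rats 1.31, 2.37, 1.12 and 2.37 CPM. FID replicate 3 was the highest female library for Ttr (276 reads) and also for Kl (0.680 CPM), Clic6 (1.15 CPM) and F5 (0.890 CPM), that is for 4 of the 10 genes, while it was highest among the females for 7.16% of the 21844 genes with reads. Its Aqp1 level of 0.576 CPM lay inside the female range of 0.108 to 1.35 CPM. Male IS rats had 1.62, 1.72, 2.40 and 0.879 CPM of Ttr, ISch rats 1.08, 3.58, 0.501 and 0.735 CPM, FID rats 5.96, 14.0, 4.11 and 348 CPM, and FIDch rats 1.76, 3.70, 0.666 and 0 CPM. The male IS, ISch and FIDch groups overlapped one another, whereas all 4 male FID libraries lay above the 12 other males. Ttr was the only member with that pattern, which 0.134% of the 22352 genes with reads in males showed, and 0.304% showed it with FID replicate 4 left out.

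In order of group mean, Ttr stood at 92.9 ± 170 CPM (SD, n = 4) in male FID, 5.75 ± 5.84 in female FID, 3.67 ± 0.889 in female IS, 3.03 ± 1.14 in female ISch, 1.79 ± 0.672 in female FIDch, 1.65 ± 0.624 in male IS, 1.53 ± 1.62 in male FIDch and 1.47 ± 1.42 in male ISch. The mean of male FID without replicate 4 was 8.02 ± 5.25 CPM (n = 3). Neighbours in this order differed by less than the larger of their SDs, apart from female ISch and female FIDch, whose ranges still met between 2.21 and 2.37 CPM.

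Further choroid plexus genes, which were not members, showed which of them were high in male FID replicate 4. Of a second list of 30 such genes, 28 were in the tables and 27 had reads in males, since Otx2, a homeobox gene of this epithelium, had 0 reads in all 32 libraries. Male FID replicate 4 was the highest male library for 14 of the 27, against 5.79% of all 22352 genes with reads. Among the 14 were Cldn2, a pore-forming tight junction protein, at 10.3 CPM against at most 0.754 CPM in other males, the membrane protein gene Tmem72 at 8.23 against 0.946 CPM, and the potassium channel gene Kcnj13 at 7.16 against 0.841 CPM. Ace (22.6 against 13.5 CPM), Igfbp2 (20.5 against 13.8 CPM) and Igf2 (51.7 against 37.9 CPM) were higher by smaller ratios. Slc13a4, Abca4, Krt18, Prlr, Wfikkn2 and Cab39l were also among the 14, but their counting intervals did not exclude the level of the next library. Htr2c, the serotonin receptor that hippocampal neurons also express, was at 136 CPM there, below the 152 CPM of FID replicate 2. Msx1 was at 5.61 against 10.8 CPM, Cldn1 at 5.85 against 7.78 CPM and Calml4 at 8.23 against 9.67 CPM in the highest other male. Col9a3, Slc2a12, Krt8, Bmp7, Trpv4, Steap1, Mia and Slc16a8 were also below another male library, and Lbp had 0 reads in male FID replicate 4. The summed level of the list was 358 CPM in male FID replicate 4, 214 to 290 CPM in the other 15 males and 146 to 249 CPM in females. Htr2c was the largest part of this sum in males, with a median of 105 CPM in the other 15.

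**Figure D2:**
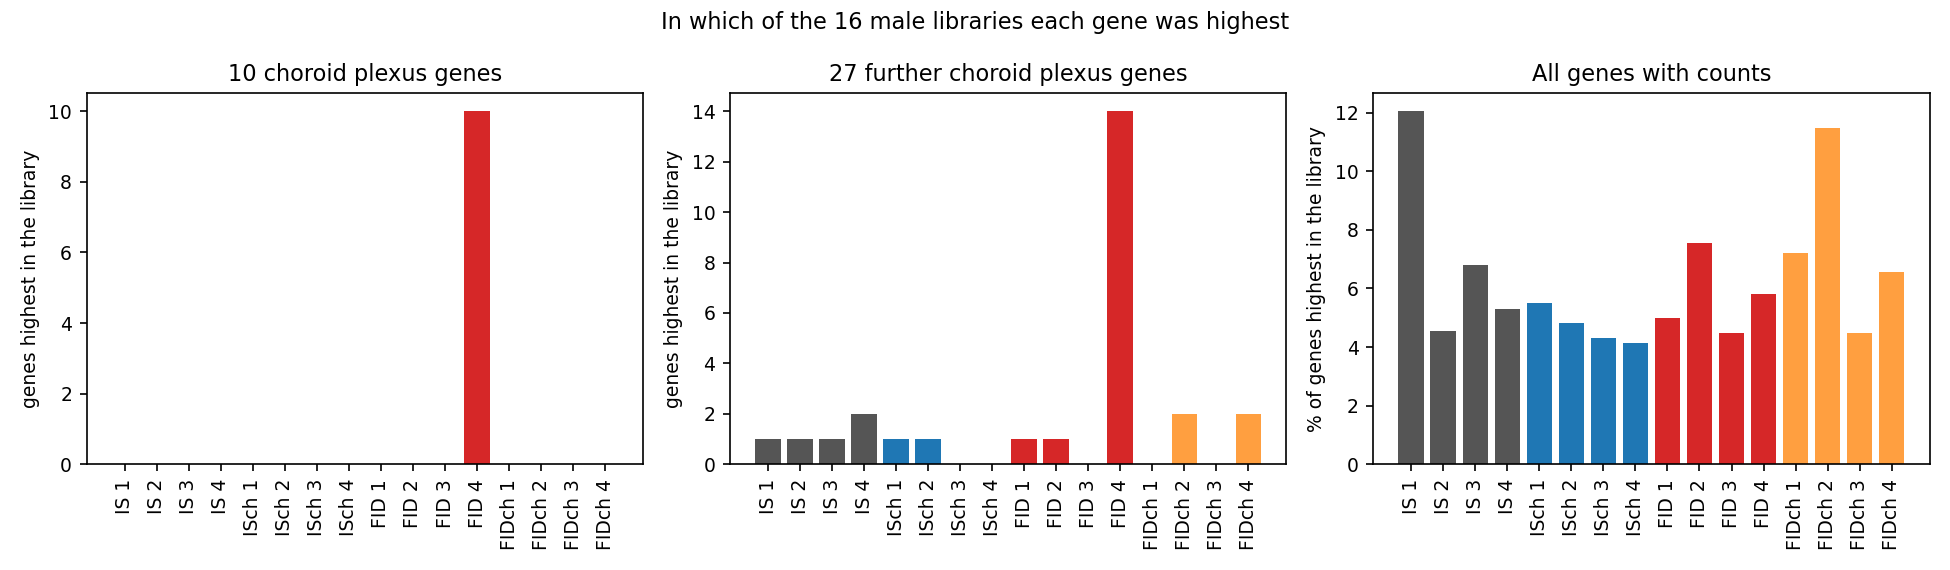
For each of the 16 male libraries, the number of the 10 choroid plexus genes (left) and of 27 further choroid plexus genes (middle) that were highest in that library, and the percentage of all 22352 genes with reads that were highest there (right). Male FID replicate 4 holds 10 of 10, 14 of 27 and 5.79%.

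Markers of other tissues near the hippocampus did not share this pattern. In male FID replicate 4 the ciliated ependyma list (11 genes in the tables) summed to 56.7 CPM, within the 39.1 to 65.3 CPM of the other 15 males. Meninges and fibroblast markers (9 genes) summed to 71.2 CPM, within 54.4 to 89.9 CPM. Endothelium (7 genes), at 334 CPM, lay near the low end of 333 to 394 CPM, and blood (3 genes), at 70.2 CPM, below the 82.0 to 193 CPM of the others. Oligodendrocyte markers (8 genes) came to 8490 CPM within 7060 to 9588, thalamus markers (8 genes) to 114 CPM within 95.0 to 128, and striatum markers (8 genes) to 166 CPM within 157 to 180. The 8 hippocampal neuron markers, which check the labelled tissue, summed to 1795 CPM in this library, 1720 to 1995 CPM in the other males and 1900 to 2392 CPM in females, and all 8 had reads.

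Across libraries, Clic6 and Aqp1 were the members whose levels followed that of Ttr most closely in both batches, which was seen only after the rhos of Ttr with all 9 other members had been computed. The Spearman rho of Ttr with Clic6 was 0.89 over the 16 male libraries (Pearson r 0.95) and 0.67 over the 16 female libraries (r 0.57). Without the 2 farthest libraries of each batch it was 0.85 in males and 0.58 in females. For Ttr with Aqp1 rho was 0.71 in males and 0.58 in females, and 0.56 and 0.65 without those libraries. With the other 7 members the rho of Ttr ran from −0.30 (Folr1) to 0.57 (Kl) in males and from −0.31 (Enpp2) to 0.33 (Kl) in females. Without those libraries Ttr with Folr1 gave −0.64 in males and 0.22 in females, Ttr with Enpp2 −0.51 and −0.37, and Ttr with Kcne2 −0.49 and 0.30. In males the Pearson r of Ttr with Kcne2 was 0.45 with all libraries and −0.45 without FID replicates 2 and 4. These correlations share library depth and are given as a description.

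**Figure D3:**
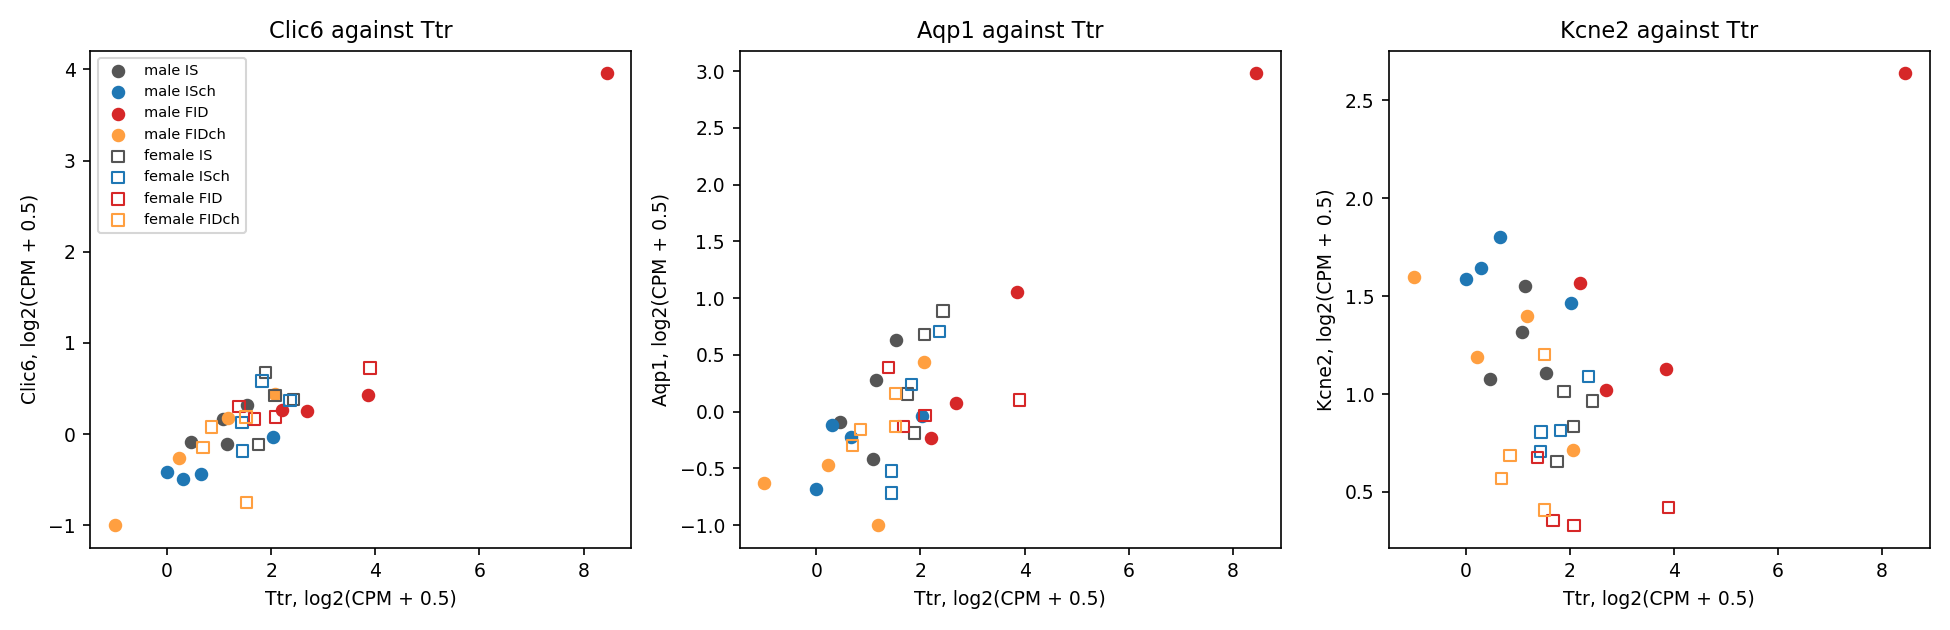
Clic6, Aqp1 and Kcne2 against Ttr in each library, as log2(CPM + 0.5), with filled circles for males, open squares for females and colours for the diets. Male FID replicate 4 lies at the upper right of each panel, and among the remaining libraries Clic6 and Aqp1 tend to be higher where Ttr is higher, while male Kcne2 does not.

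The 10 other genes whose pattern was most like the mean log2 level of the members, by the lower of the rhos in the 2 batches among 13694 genes, were only weakly like it. Their lower rho was 0.47 to 0.53, with 16 libraries a batch, and 0 of the 10 belonged to the second choroid plexus list. They were Hpf1, AABR07028237.1, Babam2, Bbip1, Lrrc34, Slc25a2, AABR07065532.8, Cpox, AABR07065078.1 and Armc3. Their Pearson r ran from −0.02 (AABR07028237.1) to 0.53 (Slc25a2) in batch I and from 0.29 (Cpox) to 0.55 (Slc25a2) in batch II. With ranks, 1 of 15 genes of the second list reached a rho of 0.5 in each batch. Only genes with at least 1 CPM in at least 4 libraries of each batch were ranked. Cldn2, Tmem72, Kcnj13 and Col8a1 of the second list were under 1 CPM in every male library but FID replicate 4. They were therefore not ranked. In each batch 15 of the 28 genes of that list in the tables met the limit, and the 0 of 10 does not cover those that did not.

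The diet comparisons asked whether the 10 genes differed with early iron deficiency or choline within a sex. The criterion was that of the study, an unadjusted p under 0.05 with a log2 fold change beyond 0.2 in either direction, in edgeR's quasi-likelihood test on genes that passed its filter on low counts. Adjusted p-values are Benjamini-Hochberg values over all genes tested. Only Ttr, Enpp2 and Kcne2 passed the filter in males, and these with Aqp1, Folr1 and Clic6 in females, so 7 members in males and 4 in females had no main test. The members were chosen with these counts known, so the fits give their size and spread and no independent support. The comparisons with IS within a sex share the 4 IS libraries, and those involving FID share the FID libraries.

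In males Ttr was higher in FID than in IS (log2 fold change 5.80, SE 1.55, edgeR adjusted p = 0.786), and it was the 1 member called of 3 tested. Of all 13851 genes tested, 4.62% met the criterion and 0% passed after adjustment (787 genes had an unadjusted p under 0.05, and DESeq2 gave 2 genes an adjusted p under 0.05). Without FID replicate 4 the change was 2.28 (SE 0.44, edgeR adjusted p = 0.692), with 3.18% of genes called. Enpp2 (0.27, SE 0.22) and Kcne2 (0.56, SE 0.41) did not pass, and without that library both values were near 0 (−0.06 and −0.03).

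With all genes of at least 1 read kept, 8 of the 10 members met the criterion in male FID against IS, beside 4.81% of all genes. These were the members other than Enpp2 and Kcne2, with log2 fold changes from 1.37 (Folr1) to 5.80 (Ttr) and edgeR adjusted p-values from 0.229 to 0.789. Without FID replicate 4, 2 of the 10 met it, Ttr (2.29, edgeR adjusted p = 0.00472) and Kl (1.28, edgeR adjusted p = 0.884), beside 3.55% of all genes. DESeq2 gave no p to Ttr, Kl, Sostdc1, Clic6 and F5 in this comparison.

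Male FIDch against FID mirrored this, since it rests on the same FID libraries. Ttr was lower in FIDch (log2 fold change −6.25, SE 1.69, edgeR adjusted p = 0.0912) and was the 1 member called of 3. The criterion was met by 13% of all genes and an adjusted p under 0.05 by 1.28%. Without FID replicate 4 the value was −2.70 (SE 0.62, edgeR adjusted p = 0.103), with 11.4% of genes called. With all genes kept, 7 members met the criterion beside 10.3% of genes, all but Enpp2, Folr1 and Kcne2, and Ttr, Kl and Slc4a5 had an adjusted p under 0.05 (edgeR adjusted p = 0.0116, 0.0315 and 0.0495). Without FID replicate 4 as well, Ttr, Kl, Slc4a5 and Aqp1 did, beside 9.58% of genes, and Ttr (−2.70, edgeR adjusted p = 0.00141) was the one with an adjusted p under 0.05.

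Against IS, 0 of the 3 members tested met the criterion in male ISch or male FIDch, where none of the 3 had an unadjusted p under 0.05 by edgeR and DESeq2 called 0. The background was 8.06% of genes for ISch (0.208% with an adjusted p under 0.05) and 6.12% for FIDch (0.131%). With all genes kept, Folr1 met the criterion in FIDch (log2 fold change 0.93, edgeR adjusted p = 0.741), beside 5.83% of genes, and 0 members did in ISch, beside 7.54%. Ttr differed by −0.18 (SE 0.53) in ISch and by −0.40 (SE 0.63) in FIDch. The ISch value changed sign without IS replicate 3, ISch replicate 3 or ISch replicate 4, and met the criterion without ISch replicate 2 (−1.08). The FIDch value changed sign without FIDch replicate 4 (0.035).

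**Figure D4:**
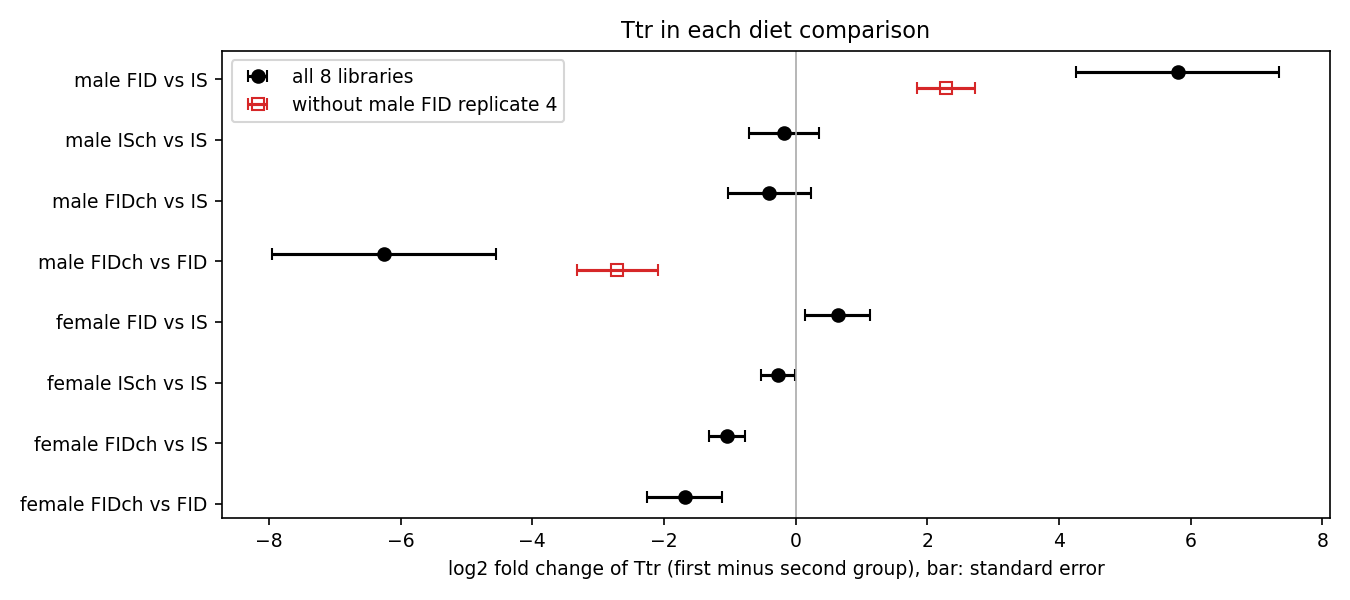
Log2 fold change of Ttr in each of the 8 diet comparisons, from edgeR, with its standard error, with all 8 libraries (black circles) and without male FID replicate 4 (red squares). Male FID against IS falls from 5.80 to 2.28 and male FIDch against FID goes from −6.25 to −2.70 without that library.

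In females Ttr was lower in FIDch than in IS (1.79 against 3.67 CPM, log2 fold change −1.05, SE 0.27, edgeR adjusted p = 0.14). Aqp1 was also lower (0.434 ± 0.129 against 0.862 ± 0.445 CPM, n = 4, log2 fold change −0.99, SE 0.42, edgeR adjusted p = 0.349), though its groups overlapped and leaving out any of 5 single libraries (IS replicates 1 or 3, FIDch replicates 1, 2 or 3) took it past the p limit. These were the 2 members called of 6, beside 8.98% of all genes (0.907% with an adjusted p under 0.05). DESeq2 gave Ttr an adjusted p under 0.05 here. With all 4 female diets in one fit neither was called, and with the replicate block Aqp1 was not. Clic6 had a value of −0.86 (SE 0.46) and did not pass.

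Sostdc1 was too low for the main test in females. It had 27, 7, 19 and 4 reads in FIDch, 5, 1, 1 and 0 in IS, 0, 1, 3 and 5 in ISch and 0, 0, 4 and 1 in FID. The FIDch and IS groups overlapped at 4 and 5 reads. With all genes kept, its log2 fold change was 2.84 against IS (edgeR adjusted p = 0.173) and 3.22 against FID (edgeR adjusted p = 0.0878), and DESeq2 gave adjusted p-values of 0.0683 and 0.026. With all genes kept, 3 members met the criterion against IS (Ttr, Aqp1 and Sostdc1, beside 8.1% of genes) and 2 against FID (Ttr and Sostdc1, beside 10.7%), while Kcne2 alone did in FID against IS (5.85% of genes) and 0 in ISch against IS (8.94%).

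Female FIDch against FID gave Ttr as the 1 member called of 6 (log2 fold change −1.69, SE 0.57, edgeR adjusted p = 0.152), beside 12.7% of genes (2.28% with an adjusted p under 0.05). It was not called without FID replicate 3 (−0.70). Female FID against IS gave Kcne2 as the 1 member called (0.867 ± 0.157 against 1.33 ± 0.198 CPM, n = 4, log2 fold change −0.60, SE 0.23, edgeR adjusted p = 0.359), beside 6.47% of genes (0.191%), and it lost the call without any of 4 single libraries (IS replicates 1 or 4, FID replicates 2 or 4). Ttr was at 0.64 (SE 0.49) there and at −0.35 without FID replicate 3. In female ISch against IS no member had an unadjusted p under 0.05 by edgeR, and DESeq2 called 0, beside 10.3% of genes (2.54%), and Ttr was at −0.27 (SE 0.26), or −0.55 and called without ISch replicate 4.

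By adjusted p under 0.05, 0 of the members tested passed in any of the 8 comparisons by edgeR with the filter on low counts, against 3 in male FIDch against FID with all genes kept, while 6 calls were made by the criterion and DESeq2 passed Ttr in female FIDch against IS and Sostdc1 in female FIDch against FID. For the difference of a diet effect between the sexes, no member passed by edgeR adjusted p, while by unadjusted p under 0.05 5 of 7 members tested did for FID, 1 of 6 for ISch and 0 of 6 for FIDch (DESeq2 was not run on this term). Of all genes, 8.34%, 15.5% and 13.9% had an unadjusted p under 0.05 for these terms. Without male FID replicate 4, 0 of 9 members tested did for FID, beside 6.25% of all genes. For FID, Ttr differed by −5.20 (female minus male, log2, SE 1.91, edgeR adjusted p = 0.498) and by −1.65 without male FID replicate 4 (adjusted p = 0.798), beside 0.0396% of all genes that passed. For ISch 1.28% and for FIDch 0.362% of genes passed, with Ttr at −0.10 (SE 0.62) and −0.67 (SE 0.74).

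Over the members tested, the median log2 fold change was 0.56 in male FID, 0.08 in male ISch and −0.04 in male FIDch against IS, and −0.54 in male FIDch against FID. In females the medians were −0.06, −0.23, −0.53 and −0.20 in the same order. Over all genes tested they lay between −0.0097 and 0.01. Without male FID replicate 4 the members' median was −0.03 in male FID against IS and 0.01 in male FIDch against FID. The filter needs reads in several libraries, so members high in 1 library alone were not tested and these medians do not stand for all 10.

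Across the 8 comparisons the second choroid plexus list (12 to 17 genes tested) gave 12 calls higher and 5 lower by the criterion, 14.4% of 118 tests, 3 of them with an adjusted p under 0.05. The share of all genes called ran from 4.62% to 13% by comparison. Htr2c rose by 0.38 (SE 0.12, edgeR adjusted p = 0.786) in male FID against IS and was lower by −0.70 (SE 0.15, edgeR adjusted p = 0.0335) in female FIDch against FID. Bmp7, a BMP ligand, and Cldn1, a tight junction protein, were higher in female ISch than in IS (1.13, SE 0.22, and 0.75, SE 0.15; edgeR adjusted p = 0.0257 and 0.0276). Both were also higher in female FIDch than in IS by the criterion (Bmp7 0.73, SE 0.22, and Cldn1 0.55, SE 0.17, edgeR adjusted p = 0.186 and 0.19), and Cldn1 was higher than in FID (0.53, SE 0.16, edgeR adjusted p = 0.111). Bmp7 was called higher without choline too, in female FID against IS (0.49, SE 0.21, edgeR adjusted p = 0.417). The list gave 3 calls higher and 2 lower in female FIDch against IS, and 2 higher and 2 lower against FID. Its medians in the 2 female FIDch comparisons were 0.07 and 0.11, while those of the members were below 0. Among the lists of neighbouring cell types, ciliated ependyma gave 10 calls higher and 1 lower (13.3% of its tests), meninges and fibroblast 6 and 8 (21.9%), endothelium 2 and 8 (17.9%) and blood 2 and 1 (9.38%). Oligodendrocyte markers gave 1 and 1 (3.13%), hippocampal neuron 6 and 2 (16.3%), thalamus 2 and 4 (9.38%), and striatum 3 and 5 (12.5%). Of the ependyma genes, 4 of 9 were called higher in male FIDch than in IS, with Tmem212 at 1.18 (SE 0.28, edgeR adjusted p = 0.223) and Ak7 at 1.04 (SE 0.26, edgeR adjusted p = 0.228). In male ISch against IS 3 of 10 were called higher, with Ak7 at 0.81 (SE 0.32, edgeR adjusted p = 0.452) and Tmem212 at 0.76 (SE 0.28, edgeR adjusted p = 0.424). In both comparisons 0 of the 3 members tested were called. The part of the ependyma genes in the members' values was not tested.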

How the data were processed

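RNA-seq (TruSeq RNA v2 libraries) was done on 32 hippocampi. Per the labels, the authors used FastQC, Trimmomatic, HISAT2 and featureCounts (Subread) on build Rnor_6.0, and deposited raw counts per gene, 1 table per sex. Strand setting and treatment of multiply mapped reads were not given in the sources used here. Every column was mapped to a sample by its label, and 0 columns were left unmapped. CPM used the library totals. edgeR 4.0.16 (R 4.3.3; filterByExpr, TMM, glmQLFit, glmQLFTest) was fitted to the 8 libraries of each comparison over all genes, and tested on simulated data; DESeq2 1.42.0, other scalings, filters, a joint fit of each sex, the replicate block and leaving out libraries were alternatives. Sex differences were interaction terms. Scores used log2(CPM + 0.5), and likeness needed 1 CPM in 4 libraries of each batch. The members and lists were chosen with earlier results of these data known. The text names all 10 members, the members called in each comparison and Ttr in all of them, the 10 most alike genes, and up to 2 called genes per list and comparison with the largest changes. Replicate pairs differed beyond counting noise (mean chi-square per gene 2.02 to 25.2 over 48 pairs). The pairs of female FIDch replicate 4 with the rest of its group stood at 22.4 to 25.2, and all other pairs at 14.3 or below. This library, part of every female FIDch comparison, was the highest female one for 14.6% of the genes with reads. Libraries are taken as separate rats, as labelled, and p-values measure the spread between them. The male libraries held fewer counted reads (3515806 to 9517503) than the female ones (18439999 to 26616318), which limits the precision of low genes there. A gene that ranked among those standing out in male FID replicate 4 is not reported here.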

Additional observations from a re-analysis of the deposited data

Results flagged for a closer look

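In each group of 4 libraries, the highest or the lowest level of a member was marked where its gap to the nearest other library was, as a share of the group's range, above Dixon's 95% critical value. Of 80 such checks (10 genes in 8 groups) 13 were marked. The members were chosen with these counts known and share libraries, so this number cannot be set against a chance rate. Male FID replicate 4 was marked for Ttr (348 CPM), Kl (13.1 CPM), Sostdc1 (7.99 CPM), Slc4a5 (9.19 CPM), Folr1 (5.37 CPM), Clic6 (15 CPM) and F5 (17.3 CPM), that is for 7 of the 10 genes, and was the highest of its group for the other 3 as well. Female FID replicate 3 was marked for Ttr (14.4 CPM, next 3.74 CPM).

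The remaining marks were at 1 to 35 reads. They were Sostdc1 in male IS replicate 4 (0.293 CPM, 2 reads) and male ISch replicate 3 (0.125 CPM, 1 read), Slc4a5 in female FIDch replicate 2 (0.939 CPM, 25 reads), Folr1 in female IS replicate 2 (1.34 CPM, 35 reads) and Clic6 in male ISch replicate 2 (0.477 CPM, 4 reads). Sostdc1 was also marked because in FIDch every male lay below the mean of the male IS rats (difference of means −0.109 CPM) and every female above that of the female IS rats (difference 0.509 CPM). The difference between the sexes was not tested, since Sostdc1 did not pass the filter, and sex and batch cannot be told apart.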

How the results depend on the processing

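Counts below are members meeting the criterion, and medians are log2 fold changes over the members tested. The replicate numbers did not pair the libraries, since the correlation of same-numbered libraries ran from −0.151 to 0.215. With the replicate block, 1 member met the criterion in female FIDch against IS, where Aqp1 was lost, and the count stayed at its value in the other 7 comparisons. With all genes of at least 1 read kept, the counts were 8 (male FID against IS), 1 (male FIDch against IS, Folr1), 7 (male FIDch against FID) and 2 (female FIDch against FID, with Sostdc1), and the medians 2.73 (male FID), −0.22 (male ISch), −0.41 (male FIDch), −3.38 (male FIDch against FID), −0.014 (female ISch) and −0.076 (female FIDch against IS), by construction over more members. With that filter and without male FID replicate 4, chosen after seeing the data, the counts were 2 in male FID against IS and 4 in male FIDch against FID. DESeq2 gave 3 in male FID against IS (Slc4a5, Aqp1 and Folr1) and 2 in male FIDch against FID (Slc4a5 and Aqp1). It gave Ttr no p in either, and no member passed there by adjusted p. In females it gave 0 in FID against IS and 2 in FIDch against FID (Ttr and Sostdc1). Its medians were −0.22 (male ISch), −0.0059 (female ISch) and −0.084 (female FIDch against IS). The share of all genes that DESeq2 called by the criterion was not computed. At least 1 CPM in 4 libraries gave 1 in male ISch and 1 in female FIDch against IS (median −0.086). Fitting all 4 diets of a sex together gave 2 in male FID and 0 in female FIDch against IS. By adjusted p with the main filter, 0 passed in male FID against IS, male FIDch against FID, female FID against IS, female FIDch against IS and female FIDch against FID, while with all genes kept 3 passed in male FIDch against FID (Ttr, Kl and Slc4a5).

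Leaving out each library in turn, counts ran from 0 to 1 in male ISch (1 without ISch replicates 1 or 2), female FID (0 without IS replicate 1, FID replicate 2 or FID replicate 4) and female ISch against IS (1 without ISch replicate 4), from 1 to 2 in male FIDch against FID (2 without FID replicate 3), from 1 to 3 in female FIDch against IS (1 without IS replicate 1 or FIDch replicates 1, 2 or 3) and from 0 to 2 in female FIDch against FID (0 without FID replicate 3, 2 without FIDch replicate 2). The medians ran from −0.31 to 0.026 in female FID and from −0.34 to −0.080 in female ISch. Ttr ran from −1.08 to 0.094 in male ISch, reversed without IS replicate 3 (0.048), ISch replicate 3 (0.094) or ISch replicate 4 (0.063), from −0.97 to 0.035 in male FIDch, reversed without FIDch replicate 4, and from −0.35 to 0.92 in female FID, reversed without FID replicate 3. The sum of the members in male FID averaged 242 CPM, or 113 CPM without replicate 4. Genes of the second list with a correlation of at least 0.5 to the members numbered 1 in each batch by rank, 6 and 0 by Pearson r (batches I and II), 0 in batch I without the 2 farthest libraries and 2 in batch II with TMM-scaled totals. Where no construction is named, the cause was not tested. Of 463 alternative values, 393 were taken as unchanged. For these a fold change kept its direction and call, a count stayed near the reported one, or a median or level stayed within the spread. A median could change sign within that spread. Without FID replicate 4 it did so in male FID against IS (−0.03) and in male FIDch against FID (0.01). Kl, Sostdc1, Clic6 and F5 had at most 9 reads in each male library other than FID replicate 4, so small differences among those libraries were not detectable at this depth.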

Other observations

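The genes that stood out most in male FID replicate 4 were ranked by (CPM + 0.5) over the same quantity in the highest of the other 15 male libraries, a ranking made after the values were seen. Of the first 20, 7 were members, 4 belonged to the second choroid plexus list (Cldn2, Tmem72, Kcnj13 and Col8a1) and 9 to neither. Mfrp, a membrane frizzled-related protein gene, had 133 reads (15.9 CPM) against a highest value of 1.25 CPM elsewhere in males. Slco1a2, an organic anion transporter, had 28 reads (3.34 CPM) against 0.469 CPM. Impad1 had 65 reads against at most 1 elsewhere in males, LOC103689983 57 against 2, LOC100910732 24 against 2, Cltrn 12 against 0, MGC94199 14 against 1 and Rmnd5b 11 against 1.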
